A study of Mus musculus with 14 samples.

Results

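The comparison was between the gastrocnemius, the large calf muscle, of tumour-bearing mice and that of control mice. It used the 6 muscle libraries of the 14 libraries in the series, chosen by tissue and by title: 3 titled control and 3 titled tumour-bearing. All mice were male C57BL/6 (C57BL/6NCrlOri), aged 6 to 8 weeks, and the protocol in the labels describes delivery of 5000000 cells of a line named KrasIKKaL through the trachea. That text is the same for every library. The sources used here do not give what the controls received, how long after delivery the muscle was taken, or how many animals gave these libraries. Nothing in the labels ties the libraries of a group to separate animals, so the p-values describe the spread among these libraries, and that spread could be technical. The series set out to find targets shared by cancer cachexia and by the muscle side effects of immune therapy.

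Cachexia is the wasting of muscle and fat that accompanies many cancers. A muscle fibre that loses mass marks its proteins with ubiquitin and degrades them in the proteasome, while signals through insulin, IGF-1 and mTOR, which favour protein synthesis, weaken and FoxO transcription factors become active. Around the fibres lie fibroblasts that make the collagen matrix, together with vessels, nerves, satellite cells (the muscle stem cells) and immune cells, and RNA of the whole muscle holds all of them.

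The 6 libraries held from 32476194 to 44169410 counts each, and a count of 0 allowed up to 3 counts, or 0.0679 to 0.0924 CPM (counts scaled to library size). The tumour-bearing libraries were less alike than the controls. The median standard deviation of a gene's log2 CPM was 0.519 in the tumour-bearing group and 0.241 in the control group, and it was the larger of the pair in the tumour-bearing group for 79.9% of genes. Correlations of log2 CPM across genes, which are not independent replicates, ran from 0.960 to 0.987 between controls and from 0.934 to 0.943 between tumour-bearing libraries. Tumour-bearing 2 stood nearer to the controls (0.927 to 0.957) than the other tumour-bearing libraries did (0.827 to 0.900). Transcripts of the mitochondrial genome took 16.16%, 26.66% and 34.11% of the counts in controls 1, 2 and 3 and 17.58%, 19.00% and 24.03% in the tumour-bearing libraries. Haemoglobin transcripts took 0.0488% to 0.0936% of the counts in 5 libraries and 0.626% in tumour-bearing 3. The tissue label held: markers of skeletal muscle fibres, among them Acta1, skeletal muscle actin, summed to between 81100 and 143000 TPM, a measure of level per transcript length, in each library, and Sftpc, Sftpa1 and Nkx2-1, which define lung epithelium, were listed at 0 in all 6. The 3 of 10 lung epithelium markers with enough counts to test were all higher without passing (median log2 change 0.80). The summed TPM of that list was 1.04 to 1.81 in the controls and 3.11, 1.95 and 4.01 in tumour-bearing 1, 2 and 3. Ager, the receptor RAGE, was highest in tumour-bearing 3, with 0.236 to 0.266 CPM in the controls and 0.588, 0.129 and 3.63 CPM in the tumour-bearing libraries (adjusted p = 0.111). Its log2 change was 0.57 without tumour-bearing 3 and 3.07 (adjusted p = 0.0223) without tumour-bearing 2.

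Each library was placed on a scale on which the mean of the controls is 0 and the mean of the tumour-bearing libraries is 1. The genes used passed the test in the other 5 libraries alone and the count filter with all 6. The left-out library thus had a part in their choice only through that filter, and CPM were scaled over all 6 libraries. Tumour-bearing 1 lay at a median of 1.35 over 1414 genes, tumour-bearing 3 at 0.90 over 1104 genes and tumour-bearing 2 at 0.45 over 4385 genes. The 3 controls lay at 0.09, 0.01 and 0.03. Thus every tumour-bearing library moved in the direction of the other tumour-bearing libraries, and tumour-bearing 2 moved least. For tumour-bearing 2, 42.7% of the genes lay past the midpoint, against 96.1% for tumour-bearing 1 and 86.7% for tumour-bearing 3.

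**Figure D1:**
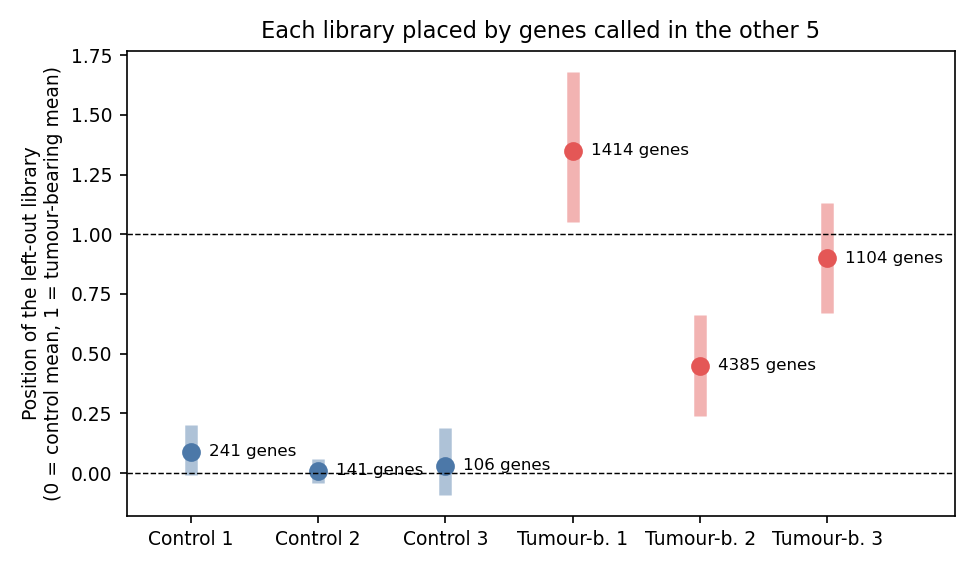
Median position (points) and interquartile range (bars) of each left-out muscle library, on a scale from the mean of the controls (0) to the mean of the tumour-bearing libraries (1) of the other 5, with the number of genes used. The controls lie between 0.01 and 0.09, tumour-bearing 2 at 0.45, tumour-bearing 3 at 0.90 and tumour-bearing 1 at 1.35.

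Tumour-bearing muscle differed from control muscle in 2196 of 14373 genes tested, or 15.3%, in edgeR's quasi-likelihood test at a Benjamini-Hochberg adjusted p below 0.05. In that test 1226 genes (8.53%) were higher and 970 (6.75%) lower, and 5126 genes had an unadjusted p below 0.05. The share of higher genes among the calls was 55.8% with the TMM scaling used here, 41.3% with upper-quartile scaling, which moved the median log2 change of all genes from -0.03 to -0.25, and 37.8% in the test on log2(TPM + 1). Large changes were more often decreases: 439 called genes were lower by at least 2 on the log2 scale and 339 higher by as much. The called higher genes held 7.06%, 5.32% and 3.82% of the counts of tested genes in the controls and 23.5%, 12.7% and 13.2% in the tumour-bearing libraries. The called lower genes went from 2.53%, 1.93% and 1.60% to 0.388%, 0.821% and 0.412%.

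**Figure D2:**
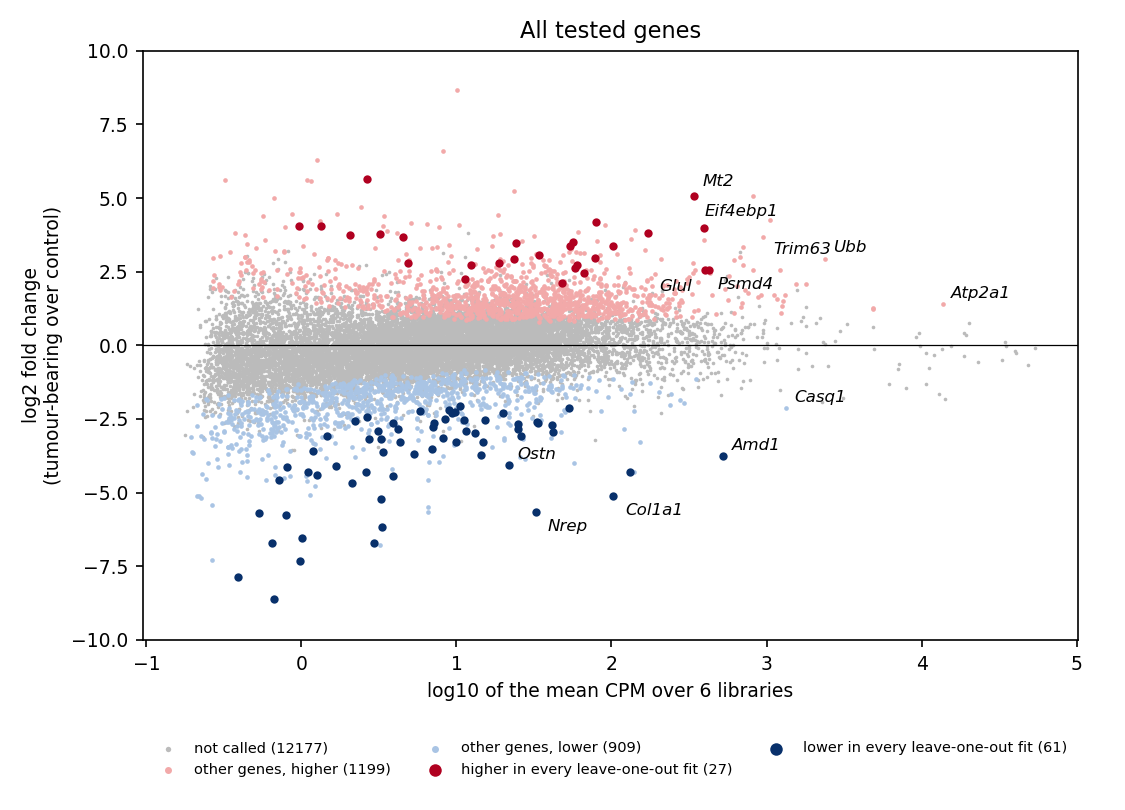
Log2 fold change of tumour-bearing over control muscle against the log10 of the mean CPM for all tested genes; each point is a gene, coloured by its call with all 6 libraries and by whether the call held in every fit that left out 1 library. The 27 higher and 61 lower genes of the last kind spread over low and high abundance, with Mt2, Eif4ebp1, Glul and Psmd4 above and Amd1, Col1a1, Nrep and Ostn below.

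Of the 2196 called genes, 1781 kept a change of at least 2-fold in each of the 6 fits that left out 1 library (897 higher, 884 lower). In 2180 of the 2196 the groups did not overlap, against 43.1% of all tested genes (21.1% higher and 22.0% lower), so their sign could not turn when 1 library was left out. The number that passed rested on single libraries. Leaving out a control reduced it to 243 for control 1 (1.65% of the genes tested), 141 for control 2 (0.956%) and 106 for control 3 (0.718%). Leaving out a tumour-bearing library gave 1432 for library 1 (9.71%), 4513 for library 2 (30.5%) and 1129 for library 3 (7.62%). Without tumour-bearing 2, 2377 genes passed that had not passed with all 6 libraries. Among the 1226 higher genes tumour-bearing 1 had the highest value of its group in 854, tumour-bearing 3 in 332 and tumour-bearing 2 in 40, and tumour-bearing 2 was nearest to the controls in 964.

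**Figure D3:**
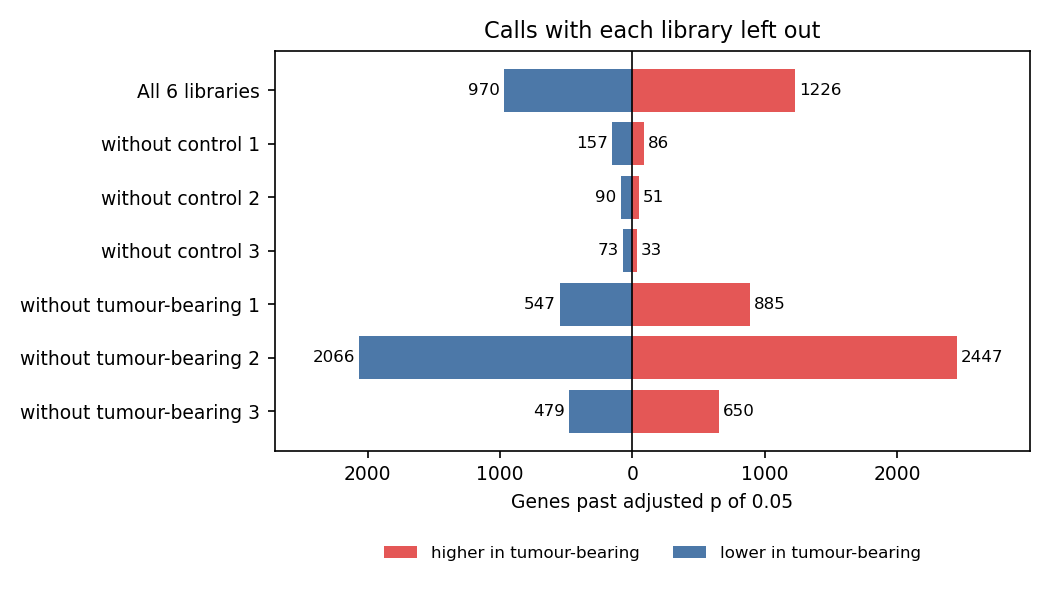
Number of genes higher (right) and lower (left) in tumour-bearing muscle at an adjusted p below 0.05 with all 6 libraries and with each library left out. Calls fall from 1226 and 970 to 33 and 73 without control 3 and rise to 2447 and 2066 without tumour-bearing 2.

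Calls that passed in all 6 of these fits as well numbered 88, or 0.612% of tested genes, 27 of them higher (0.188%) and 61 lower (0.424%). The count depends on the tool: DESeq2 gave 1210 such genes, all 88 among them. Among the higher ones was Mt2, a metallothionein, a small protein that binds zinc and copper. Mt2 had 12.2, 16.3 and 31.1 CPM in the controls and 909, 179 and 905 CPM in the tumour-bearing libraries, a log2 change of 5.06 (SE 0.69, adjusted p = 0.00715, edgeR). The groups lay far apart, with tumour-bearing 2 the lowest of its group. Eif4ebp1, which encodes 4E-BP1, the inhibitor that binds the cap-binding protein eIF4E, had 44.1, 47.3 and 50.1 CPM against 856, 496 and 884 (log2 change 3.98, SE 0.34, adjusted p = 0.00407). Its control values were close together and its lowest tumour-bearing value, again in tumour-bearing 2, was far above them. Fkbp5, which binds the glucocorticoid receptor and is induced by it, had 9.91, 10.5 and 6.77 CPM against 161.6, 55.4 and 96.1 (log2 change 3.52, SE 0.43, adjusted p = 0.00604). Depp1, a target of FoxO factors, had 13.6, 14.4 and 26.3 CPM against 177, 113 and 272 (log2 change 3.37, SE 0.43, adjusted p = 0.00647). Neither gene's groups overlapped, and tumour-bearing 2 was the lowest of its group for both.

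Further genes higher in each of these fits were Gadd45a (log2 change 3.08), a growth arrest gene that drives fibre atrophy, Eda2r (2.95), the receptor for ectodysplasin A2, and Nfkbib (2.95), an inhibitor that holds NF-kappaB in the cytoplasm. Ctxn3 (3.82), Cpne2, a copine that binds membranes with calcium (3.48), and Galnt15, a glycosyltransferase of the Golgi (3.39), completed a ranking of the 10 largest increases. That ranking took only genes averaging at least 5 CPM whose calls held in every fit, and it skipped any gene with a clone name. The gene 2410006H16Rik, which such a name leaves out, changed by 4.18, with 8.21, 8.63 and 8.13 CPM in the controls and 105.5, 101.4 and 245.1 CPM in the tumour-bearing libraries (adjusted p = 0.00432). Eda2r had 6.77, 5.72 and 3.73 CPM in the controls and 49.2, 35.9 and 40.4 CPM in the tumour-bearing libraries (SE 0.32, adjusted p = 0.00496, edgeR). That SE was the smallest among the 10 largest increases above. Named after their values were seen, the DNA repair gene Xpa (log2 change 2.80), the phosphatase Dusp26 (2.74), the zinc finger protein Zpr1 (2.13) and the chemokine Cxcl10 (4.07) also held in every fit. So did Ggt6, a gamma-glutamyltransferase, with 0 to 0.150 CPM in the controls and 4.40 to 6.18 CPM in the tumour-bearing libraries. Its log2 change of 5.66 was the largest increase that held in every fit, at a mean of 2.64 CPM.

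The 61 lower genes that held in every fit included matrix genes, described below, and genes of other kinds. Ostn, which encodes the muscle peptide osteocrin (musclin), had 47.3, 43.4 and 32.2 CPM in the controls and 1.36, 4.61 and 1.27 CPM in the tumour-bearing libraries (log2 change -4.08, SE 0.53, adjusted p = 0.00673). Nrep, a small intracellular protein linked to nerve regeneration, had 69.2, 66.0 and 55.2 CPM against 0.629, 2.24 and 0.849 (log2 change -5.67, SE 0.52, adjusted p = 0.00424). Both had their highest tumour-bearing value in tumour-bearing 2, and without that library the log2 changes were -4.93 for Ostn and -6.42 for Nrep. Tfrc, the transferrin receptor through which cells take up iron, had 98.1, 74.5 and 49.0 CPM against 5.54, 16.5 and 6.87 (log2 change -2.94, SE 0.47, adjusted p = 0.0110, and -3.55 without tumour-bearing 2). Grb14, an adaptor that inhibits the insulin receptor, had 17.9, 14.7 and 5.82 CPM against 0.933, 1.36 and 1.08 (log2 change -3.51, SE 0.46, adjusted p = 0.00673). No control value of these 4 genes lay as low as a tumour-bearing value, and the controls of Tfrc and Grb14 were lowest in control 3. Tfrc was named after its values were seen, as were Mettl21c (-2.71), a lysine methyltransferase of muscle, Map2k6 (-2.25), a kinase that activates p38, and Fgfbp1 (-4.68), a carrier of fibroblast growth factors.

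Promoters of 3 genes are shown because their groups lay apart and each holds a match to a binding motif known for a pathway described here. They are RefSeq sequences of the build GRCm38.p6, the 250 bases before the annotated start of the gene, 5′ to 3′ on the strand of the gene, with motif matches on either strand in capitals. For Mt2 (chr8:94172368-94172617, plus strand) the capitals mark 5 matches to TGCNCNC, a looser form of the core of the metal response element bound by MTF1. For Eda2r (chrX:97377210-97377459, minus strand) they mark 1 match to GTAAACA, a FoxO site. For Hmgcs1, the enzyme that starts the mevalonate pathway (chr13:119690101-119690350, plus strand), they mark 1 match to TCACNCCAC, a sterol response element.
Mt2: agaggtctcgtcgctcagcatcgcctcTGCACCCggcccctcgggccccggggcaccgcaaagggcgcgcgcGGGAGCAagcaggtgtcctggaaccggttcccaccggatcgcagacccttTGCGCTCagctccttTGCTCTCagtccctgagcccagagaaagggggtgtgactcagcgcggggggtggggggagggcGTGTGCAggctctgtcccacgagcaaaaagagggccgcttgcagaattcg
Eda2r: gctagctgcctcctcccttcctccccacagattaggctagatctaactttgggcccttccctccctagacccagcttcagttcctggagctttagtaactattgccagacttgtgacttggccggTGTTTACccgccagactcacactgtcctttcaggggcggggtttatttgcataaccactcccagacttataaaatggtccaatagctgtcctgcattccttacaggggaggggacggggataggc
Hmgcs1: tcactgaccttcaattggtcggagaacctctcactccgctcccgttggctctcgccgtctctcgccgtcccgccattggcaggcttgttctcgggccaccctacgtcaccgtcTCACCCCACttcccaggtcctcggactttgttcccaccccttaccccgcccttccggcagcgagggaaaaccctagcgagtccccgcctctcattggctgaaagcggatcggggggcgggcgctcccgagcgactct

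These matches describe the sequences and do not show binding. TGCNCNC occurs in 47.2% of all 27025 RefSeq promoters of this length, GTAAACA in 3.54% and TCACNCCAC in 1.22%, and all were searched on both strands. The call of Hmgcs1 was lost when any single control was left out (adjusted p up to 0.0835). Of the 10482 tested genes with a promoter in the table, 283 held GTAAACA, and it was present in 3.51% of the 912 called higher and 2.32% of the 689 called lower. The antioxidant response element TGACNNNGC was found in 2 of 20 promoters of rising proteasome genes (10.0%) and in 1470 of the 10482 tested genes. TCACNCCAC was found in 1 of 5 promoters of falling sterol synthesis genes, that of Hmgcs1, and in 130 of the 10482. Among genes that held in every fit without 1 library, it was in 2 of 20 promoters of higher and 0 of 43 of lower genes. In all, 10 motifs were searched, and those shown were chosen after their matches were seen.

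Gene lists by function are given below by the number of members that passed the test, beside the background of 8.53% higher and 6.75% lower, and by their median log2 change, beside -0.03 over all tested genes. Named genes outside the 88 lost their calls in at least 1 fit that left out a library, most often a control, and those fits are given with them. The plot of gene lists by library shows which moved in all 3 tumour-bearing libraries. The lists with the highest medians were the proteasome (1.23), ribosome assembly factors (0.96) and translation initiation factors (0.94), and those with the lowest were collagen chains (-2.02) and small leucine-rich proteoglycans (-1.52).

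**Figure D4:**
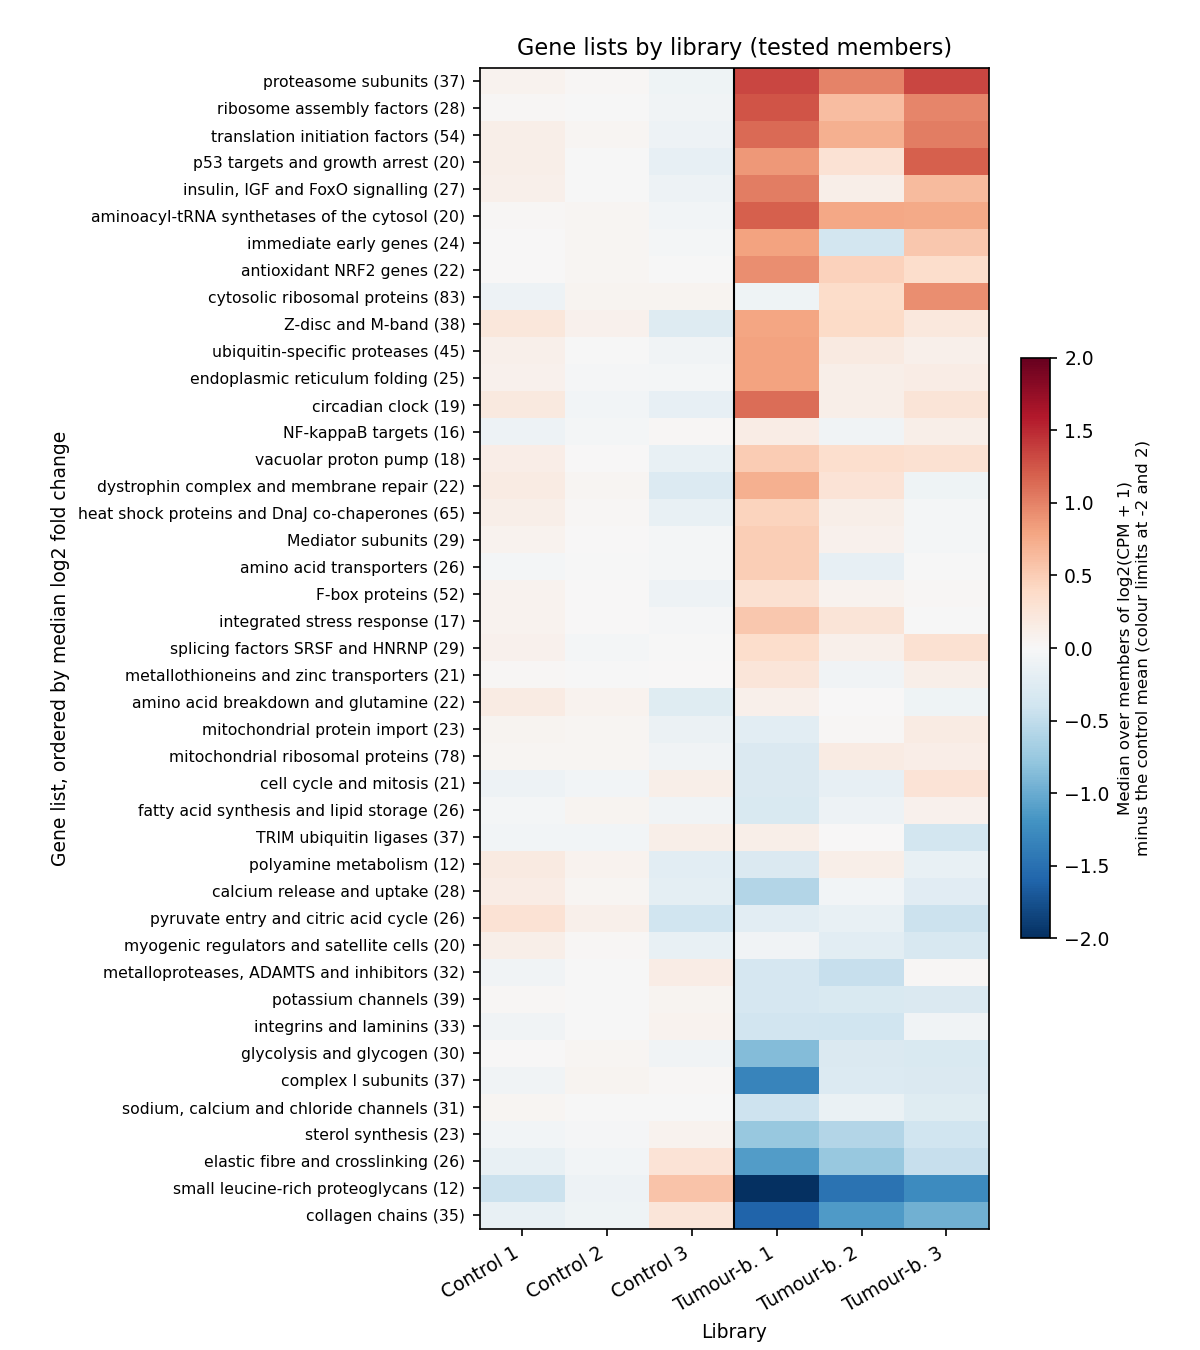
Median over the tested members (number in brackets) of each gene list, in each muscle library, of log2(CPM + 1) minus the mean of the controls; red is higher and blue lower, with colours saturating at 2 and -2. Proteasome subunits reach 1.34, 0.99 and 1.33 in tumour-bearing 1, 2 and 3, and collagen chains -1.60, -1.13 and -0.97, while complex I subunits reach -1.32 in tumour-bearing 1 and about -0.3 in the others.

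The proteasome was the most completely changed list. Of its 37 tested subunits 26 rose, 3 fell and 8 did not pass, and 19 rose by at least 2-fold in every fit that left out 1 library. Psmd4, a subunit that recognises ubiquitin chains and the 1 member that held its call in every fit, had 111, 121 and 122 CPM in the controls and 649, 511 and 908 CPM in the tumour-bearing libraries (log2 change 2.54, SE 0.31, adjusted p = 0.00604). Psma7, of the outer ring of the core particle, had 52.7, 52.6 and 52.1 CPM against 222, 186 and 210 (log2 change 1.97, SE 0.25, adjusted p = 0.00604, and 0.0509 without control 2). The control values of both genes were nearly equal and all tumour-bearing values lay above them. The 3 that fell were Psmb8, Psmb9 and Psmb10, named after their values were seen. They are the catalytic subunits of the immunoproteasome, the form that interferon induces for antigen presentation, and they changed by -1.62, -2.30 and -1.61. Psmb9 had 2.06, 2.49 and 5.28 CPM in the controls and 0.507, 1.00 and 0.463 CPM in the tumour-bearing libraries. The median of the list was between 1.14 and 1.32 in every fit without 1 library and 1.00 under upper-quartile scaling. The 3 decreases were less firm: their calls were lost when any single control or tumour-bearing 3 was left out, and those of Psmb8 and Psmb9 also without tumour-bearing 1, with adjusted p up to 0.103 for Psmb9, 0.120 for Psmb10 and 0.173 for Psmb8.

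Upstream of the proteasome, Ubb, which encodes polyubiquitin B, had 562, 551 and 529 CPM in the controls and 6444, 2236 and 3943 CPM in the tumour-bearing libraries (log2 change 2.94, SE 0.43, adjusted p = 0.00883). It was the called gene with the largest fold among the 5 most abundant higher genes, and its lowest tumour-bearing value was in tumour-bearing 2. Of 52 F-box proteins, the substrate receptors of SCF ligases, 7 rose and 1 fell (15.4% called, beside 15.3% of all tested genes). Of 37 TRIM ligases 1 rose and 2 fell (8.11%, under that background). These lists do not cover all ubiquitin ligases. The median of the F-box list was 0.21, and -0.02 under upper-quartile scaling. Fbxo32, atrogin-1, and Trim63, MuRF1, are the ligases best known from muscle atrophy. Fbxo32 had 194, 150 and 105 CPM against 2145, 602 and 856, and Trim63 had 156, 144 and 117 CPM against 2425, 367 and 2501. Neither gene's groups overlapped, and tumour-bearing 2 was the lowest of its group for both. Fbxo31 also rose (log2 change 2.23), while Trim7, a ligase that binds glycogenin, fell from 46.3, 46.2 and 61.7 CPM to 0.771, 7.23 and 2.702 (log2 change -3.85, SE 0.69, adjusted p = 0.0141). Without control 3 the calls of Ubb (adjusted p = 0.0595), Fbxo32 (0.0762), Trim63 (0.0825), Fbxo31 (0.0725) and Trim7 (0.0700) were lost, as were those of Ubb, Fbxo32, Trim63 and Fbxo31 without control 2 and that of Trim63 without control 1 (0.0581). The log2 change of Fbxo32 was 2.30 without tumour-bearing 1 and that of Trim7 -4.91 without tumour-bearing 2.

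Genes for making protein rose beside those for degrading it. Of 54 translation initiation factors 23 rose, 1 fell and 30 did not pass. They included 11 genes of eIF3, the complex that recruits the small ribosomal subunit, and 4 of eIF2B, the exchange factor that recharges eIF2. Eif3g had 31.6, 34.5 and 33.3 CPM in the controls and 108, 75.9 and 115 CPM in the tumour-bearing libraries (log2 change 1.59, SE 0.27, adjusted p = 0.0121). Eif4ebp1, the inhibitor described above, counts among the 23. Eif2ak2, the kinase PKR that inhibits eIF2, was the 1 that fell (log2 change -1.62, adjusted p = 0.0273, edgeR). Another kinase of eIF2, Eif2ak1, was among the 23 that rose, a call that did not hold in every fit without 1 library. Both kinases were named after their values were seen. Eif3j1 and Eif3j2 are near-identical copies, so their separate values are uncertain. Of 20 cytosolic aminoacyl-tRNA synthetases, which load amino acids onto tRNA, 10 rose and none fell. Vars, for valine, had 10.5, 14.2 and 9.28 CPM against 96.7, 39.4 and 53.8 (log2 change 2.48, SE 0.38, adjusted p = 0.0102), and Tars, for threonine, changed by 1.53. Of 28 ribosome assembly factors, which work mostly in the nucleolus, 11 rose and none fell. Nop14 had 6.28, 7.37 and 7.07 CPM against 98.2, 25.8 and 37.8 (log2 change 2.96, SE 0.49, adjusted p = 0.0117), and Gnl3, nucleostemin, changed by 2.14. For Eif3g, Eif2ak2, Vars, Tars, Nop14 and Gnl3 the groups did not overlap, and Nop14 was highest by far in tumour-bearing 1 and changed by 2.22 without it. Calls of Eif3g, Tars, Nop14 and Gnl3 were lost when any single control was left out (adjusted p up to 0.0773, 0.0884, 0.0721 and 0.0845). That of Vars was lost without control 1 or 3 (up to 0.0675), and that of Eif2ak2 without any library but tumour-bearing 2 (up to 0.117). Those of Eif3g, Vars, Tars and Gnl3 were also lost on log2(TPM + 1).

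Cytosolic ribosomal proteins gave few calls but mostly positive changes. Of 83 tested, 75 were positive, with a median of 0.49 (0.27 under upper-quartile scaling and 0.22 without tumour-bearing 3). In 35 of the 83 all tumour-bearing values lay above the controls, which was so for 21.1% of all tested genes. Those that rose were 4 (4.82%, under the background), among them Rpl4, with 391, 370 and 363 CPM in the controls and 1158, 747 and 1128 CPM in the tumour-bearing libraries (log2 change 1.43, SE 0.29, adjusted p = 0.0188), and Rpl7a (1.18). Rpl3 (1.15), named after its values were seen, also rose. Many processed copies of ribosomal protein genes lie in the genome, so these values are uncertain. The list differed between libraries, at medians of -0.09, 0.37 and 0.92 in tumour-bearing 1, 2 and 3 on the log2(CPM + 1) scale. Of 78 mitochondrial ribosomal proteins 4 rose and 1 fell, with a median of -0.03. Calls of Rpl4, Rpl7a and Rpl3 were lost when any single control was left out (adjusted p up to 0.107, 0.118 and 0.135), that of Rpl3 also without tumour-bearing 3 (0.0782), and those of Rpl4 and Rpl7a on log2(TPM + 1).

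Genes of insulin, IGF and FoxO signalling changed in both directions. Of 27 tested members 8 rose, 4 fell and 15 did not pass. Foxo1, a FoxO factor that induces atrophy genes, had 18.4, 19.5 and 23.6 CPM in the controls and 102, 79.5 and 158 CPM in the tumour-bearing libraries (log2 change 2.47, SE 0.32, adjusted p = 0.00673), a change that held in every fit without 1 library. All tumour-bearing values of Foxo1 were above all control values. The others that rose, named after their values were seen, were Foxo3 (1.61), the PI3-kinase inhibitor Pik3ip1 (1.58), the regulatory subunit Pik3r1 (1.98), Akt1 (2.60), Mtor (1.63), the glucocorticoid-induced factor Klf15 (2.90) and Igfbp3 (3.12). The 4 that fell were Grb14, described above, and Foxo6 (-2.74), Igf1 (-1.83) and Igfbp5 (-3.29), which were likewise named with their values known. Foxo6 overlaps the antisense gene Foxo6os, and their reads cannot be told apart here. Igf1, the growth factor itself, had 28.6, 31.6 and 39.8 CPM against 5.35, 8.67 and 14.1. Igfbp5, a binding protein of IGFs, had 306, 264 and 267 CPM against 10.6, 56.8 and 18.4. Both were lower in each tumour-bearing library than in any control. Without control 3 their adjusted p was 0.0880 for Igf1 and 0.0665 for Igfbp5, and the change of Igfbp5 was -4.25 without tumour-bearing 2. The calls of Foxo3, Pik3ip1, Pik3r1, Akt1, Mtor, Klf15, Igfbp3 and Igf1 were lost when any single control was left out (adjusted p up to 0.121, for Mtor), and that of Foxo6 without control 2 (0.0542). Without tumour-bearing 1 the changes of Akt1 and Klf15 were 1.86 and 2.25. The list was least moved in tumour-bearing 2, at a median of 0.11 against 1.02 in tumour-bearing 1 and 0.63 in tumour-bearing 3.

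Stress and growth arrest genes changed mostly upward. Of 20 targets of p53 and growth arrest genes 8 rose and 1 fell, and Eda2r and Gadd45a held in every fit. Gadd45a had 7.31, 6.80 and 7.38 CPM in the controls and 96.8, 38.2 and 46.4 CPM in the tumour-bearing libraries (SE 0.39, adjusted p = 0.00636). Cdkn1a, the cell cycle inhibitor p21, named after its values were seen, had 24.5, 29.2 and 40.3 CPM against 361, 55.3 and 478 (log2 change 3.25, SE 0.67, adjusted p = 0.0194). Tumour-bearing 2 lay close above the controls for Cdkn1a and far above them for Gadd45a. Of 17 genes of the integrated stress response, by which phosphorylated eIF2 raises ATF4, 5 rose and 1 fell. Ppp1r15a, the phosphatase subunit GADD34 that ends the response, had 19.6, 18.9 and 13.9 CPM against 484, 40.7 and 272 (log2 change 3.92, SE 0.75, adjusted p = 0.0163), and 3.18 without tumour-bearing 1. Stc2, a secreted glycoprotein, rose by 2.62, and Atf4 (1.47), Sesn2 (1.77) and Chac1 (1.96), named after their values were seen, rose while Nupr1 (-1.57) fell. The median of the list was 0.20, and -0.07 under upper-quartile scaling. Of 24 immediate early genes, which respond within minutes to stimulation, 6 rose and 3 fell. Myc, a transcription factor of growth, had 1.35, 1.62 and 1.10 CPM against 26.4, 4.61 and 9.96 (log2 change 3.33, SE 0.60, adjusted p = 0.0145), and 2.43 without tumour-bearing 1. Calls of Cdkn1a, Ppp1r15a, Atf4, Sesn2, Chac1, Nupr1 and Myc were lost when any single control was left out (adjusted p up to 0.0869, 0.0880, 0.121, 0.121, 0.166, 0.162 and 0.0826), and that of Stc2 without control 2 or 3 (up to 0.0620). Those of Cdkn1a, Atf4, Sesn2 and Nupr1 were lost without tumour-bearing 3 as well, those of Chac1 and Nupr1 without tumour-bearing 1 and that of Nupr1 without tumour-bearing 2, and Chac1 changed by 1.01 without tumour-bearing 2.

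Among 19 clock genes, which keep daily time, 8 rose and 2 fell, the highest share called after the proteasome among the lists of function. Per2, a repressor of the clock, had 2.34, 1.32 and 2.43 CPM in the controls and 14.6, 6.51 and 13.7 CPM in the tumour-bearing libraries (log2 change 2.51, SE 0.41, adjusted p = 0.0114). Its groups were apart, and its call was lost without control 2 (adjusted p = 0.0580) and without control 3 (0.0620). Dbp, an output gene of the clock, named after its values were seen, had 26.5, 26.0 and 27.5 CPM in the controls and 1.72, 27.5 and 8.65 CPM in the tumour-bearing libraries (log2 change -1.08, adjusted p = 0.311, and -2.36 with 0.0272 without tumour-bearing 2). Its groups overlapped through tumour-bearing 2, which lay level with the highest control, and the median of the list was 1.11, 0.12 and 0.26 in tumour-bearing 1, 2 and 3. The sources used here do not give the hour at which each muscle was taken, and its part in these values was not tested.

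Amino acid genes changed singly. Glul, glutamine synthetase, held in every fit without 1 library, with 138, 125 and 113 CPM in the controls and 844, 566 and 785 CPM in the tumour-bearing libraries (log2 change 2.55, SE 0.29, adjusted p = 0.00587). In that list of 22 genes of amino acid breakdown 4 rose and none fell (18.2% called, near the background of 15.3%). The others that rose were Bckdhb (1.01), Bckdha (1.05) and Prodh (1.39), of which Bckdha and Prodh were named with their values known. Bckdha and Bckdhb encode the subunits of the enzyme that commits branched-chain amino acids to breakdown. Of 26 amino acid transporters 5 rose and 1 fell. Slc3a2, the heavy chain shared by several exchangers, had 17.0, 18.4 and 17.2 CPM against 59.9, 37.5 and 69.4 (log2 change 1.67, SE 0.29, adjusted p = 0.0138), and Slc43a1, LAT3, changed by 1.89. Slc38a3, a glutamine transporter named after its values were seen, fell from 41.5, 47.5 and 52.5 CPM to 13.3, 22.9 and 15.4 (log2 change -1.45). For each gene with library values here the groups did not overlap. Calls of Slc3a2, Slc43a1, Slc38a3, Bckdhb, Bckdha and Prodh were lost when any single control was left out, with adjusted p from at most 0.0767 for Slc43a1 to at most 0.157 for Bckdha. Those of Bckdhb, Bckdha and Prodh were also lost without tumour-bearing 3 (0.0550, 0.0865 and 0.0896), that of Bckdha without tumour-bearing 1 (0.0544) and that of Bckdhb under upper-quartile scaling.

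Polyamines, small cations made from ornithine and needed for growth, depend on S-adenosylmethionine decarboxylase, encoded by Amd1. Amd1 had 1201, 992 and 746 CPM in the controls and 35.9, 142 and 37.7 CPM in the tumour-bearing libraries (log2 change -3.77, SE 0.59, adjusted p = 0.0105). It was among the most abundant genes that fell, held in every fit and changed by -4.71 without tumour-bearing 2. Its near-identical copy Amd2 had 7.09, 7.73 and 7.68 CPM against 0.182, 0.643 and 0.193, but reads of the copies are hard to tell apart and its separate value is uncertain (log2 change -4.44, and -5.28 without tumour-bearing 2). Smox, spermine oxidase, fell from 271, 241 and 178 CPM to 26.8, 65.3 and 56.1 (log2 change -2.22), and Srm, spermidine synthase, rose from 6.58, 7.76 and 8.02 to 21.0, 15.2 and 22.5 (1.39). These 4 were the calls among 12 polyamine genes, Smox and Srm being named after their values were seen. Odc1, ornithine decarboxylase, the first enzyme of the pathway, did not pass (log2 change 0.65, adjusted p = 0.115). The calls of Smox and Srm were lost when any single control was left out, with adjusted p up to 0.0562 for Smox and 0.0899 for Srm.

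Energy genes gave few calls. Of 30 glycolysis and glycogen genes 1 passed: Gyg, glycogenin, which primes glycogen, rose from 260, 215 and 144 CPM to 881, 579 and 575 (log2 change 1.72, SE 0.34, adjusted p = 0.0170). In edgeR's test none of 26 genes of pyruvate entry and the citric acid cycle passed, and none of 37 complex I subunits, although 34 of the 37 had negative changes (median -0.61). Ndufs1, of the electron input module of complex I, had 154, 121 and 90.4 CPM in the controls and 49.4, 81.5 and 46.7 CPM in the tumour-bearing libraries (log2 change -1.04, adjusted p = 0.0585, and 0.0198 without tumour-bearing 2). Complex I was lowest in tumour-bearing 1, with a median of -1.32 against -0.27 and -0.30 in the others, and its median change without that library was -0.33. Outside complex I, Cycs, cytochrome c, fell from 544, 456 and 454 CPM to 151, 268 and 245 (log2 change -1.13, adjusted p = 0.0402), and Ckmt2, the mitochondrial creatine kinase of striated muscle, from 545, 483 and 365 to 83.9, 183 and 92.0 (log2 change -1.96, SE 0.37, adjusted p = 0.0163). In both genes every tumour-bearing library lay below the controls. Gyg, Cycs and Ckmt2 lost their calls when any single control was left out (adjusted p up to 0.0884, 0.135 and 0.0745), and Cycs also without tumour-bearing 3 (0.0678).

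Lipid genes changed in both directions. Pnpla2, the lipase ATGL that starts fat breakdown, had 133, 142 and 125 CPM in the controls and 870, 351 and 955 CPM in the tumour-bearing libraries (log2 change 2.45, SE 0.40, adjusted p = 0.0115). G0s2, the protein that inhibits ATGL, had 20.4, 15.5 and 10.6 CPM against 2.94, 3.52 and 2.97 (log2 change -2.30, SE 0.32, adjusted p = 0.00722) and held in every fit without 1 library. Enzyme and inhibitor thus moved in opposite directions, each with no overlap between the groups. Of 26 genes of fatty acid synthesis and lipid storage 4 rose and 4 fell. Plin4 (2.43), a coat protein of lipid droplets, Lpin1 (1.43) and Acacb (1.48) were the others that rose, and Elovl6 (-2.04), Scd1 (-1.84) and Scd2 (-1.48), which lengthen or desaturate fatty acids, were the others that fell, all named after their values were seen. Markers of fat cells were read beside these genes, and their part was not tested: 5 of 6 tested were lower and 1 passed (median -1.13), with a summed TPM of 202 to 252 in the controls and 171, 249 and 291 in the tumour-bearing libraries. The 1 that passed was Plin1, a droplet coat protein of fat cells, with 1.10, 1.80 and 2.24 CPM against 0.0203, 0.232 and 0.386 (log2 change -3.09, adjusted p = 0.0312). Its call was lost when any single control was left out (up to 0.119), and its change was -2.46 without tumour-bearing 1 and -3.79 without tumour-bearing 3. Of 23 sterol synthesis genes 7 fell and 1 rose. Hmgcs1 had 32.3, 31.9 and 44.0 CPM against 9.19, 16.1 and 11.5 (log2 change -1.56, SE 0.30, adjusted p = 0.0169), and Cyp51, which removes a methyl group from lanosterol, 4.54, 5.31 and 7.11 CPM against 1.82, 1.83 and 2.05 (log2 change -1.57). Both were lower in every tumour-bearing library than in any control. The 1 that rose was Fdft1, squalene synthase (1.81), named after its values were seen. The median of the sterol list was -0.79, between -0.83 and -0.68 in every fit without 1 library and -0.29 on log2(TPM + 1), a scale that shrinks changes of low genes. Without control 3 the calls of Pnpla2, Plin4, Hmgcs1, Cyp51 and Fdft1 were lost (adjusted p from 0.0725 to 0.0935), as were those of Lpin1, Acacb, Elovl6, Scd1 and Scd2 when any single control was left out (up to 0.0912, 0.120, 0.134, 0.149 and 0.141). The calls of Elovl6, Scd1 and Scd2 were lost without tumour-bearing 1, those of Scd1 and Scd2 without tumour-bearing 2 and those of Acacb and Elovl6 without tumour-bearing 3, and Scd1 changed by -2.52 without tumour-bearing 3. Those of Pnpla2, Hmgcs1, Cyp51 and Fdft1 were lost without control 1, and of these and Plin4 without control 2.

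Metal and antioxidant genes rose in part. Mt1, the neighbour of Mt2, had 35.8, 45.5 and 61.9 CPM in the controls and 1747, 372 and 2645 CPM in the tumour-bearing libraries (log2 change 5.06, SE 0.70, adjusted p = 0.00718, and 0.0502 without control 3). Slc39a14, the zinc and iron importer ZIP14, named after its values were seen, had 4.11, 4.29 and 4.22 CPM against 106, 6.54 and 34.2 (log2 change 3.54, adjusted p = 0.0260). Its change rested on tumour-bearing 1, without which it was 2.29, and its call was lost when any single control or tumour-bearing 3 was left out (adjusted p up to 0.115). These were the calls, with Mt2, among 21 metallothioneins and zinc transporters (14.3%, near the background of 15.3%). Of 22 antioxidant genes linked to the factor NRF2, 6 rose and none fell. Sod1, cytosolic superoxide dismutase, had 108, 122 and 132 CPM against 309, 290 and 391 (log2 change 1.45, SE 0.27, adjusted p = 0.0148), and Keap1, the protein that targets NRF2 for degradation, changed by 1.10. The groups of both were apart, and both calls were lost when any single control was left out (at most 0.0903 and 0.127). Of 65 heat shock proteins and DnaJ co-chaperones 9 rose and 1 fell (15.4% called, beside 15.3% of all tested genes). The median of that list was 0.26, and 0.04 under upper-quartile scaling. Hsp90ab1, a constitutive form of HSP90, had 606, 658 and 596 CPM against 2726, 1553 and 1767 (log2 change 1.70, SE 0.32, adjusted p = 0.0163). Its call was likewise lost when any single control was left out (up to 0.0879).

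In the contractile apparatus, calls lay mainly among the proteins that anchor and link sarcomeres. The difference from the filament genes was not tested. None of 12 fibre markers, which include the fast and slow myosins and troponins, passed in edgeR's test (Myh2, a fast myosin named after its values were seen, changed by -1.44 with an adjusted p of 0.0713), and of 38 Z-disc and M-band genes 9 rose and 2 fell. Nrap, which links actin to the membrane during assembly of myofibrils, had 441, 394 and 239 CPM in the controls and 2927, 1591 and 1741 CPM in the tumour-bearing libraries (log2 change 2.54, SE 0.39, adjusted p = 0.00992). Pdlim3, a Z-disc adaptor, had 260, 231 and 190 CPM against 863, 733 and 982 (log2 change 1.92, SE 0.29, adjusted p = 0.00935). Des, desmin, the intermediate filament that ties Z-discs together, had 2854, 2930 and 2963 CPM against 7089, 5159 and 8217 (log2 change 1.23, SE 0.32, adjusted p = 0.0384). All 3 were higher in every tumour-bearing library than in any control. Actn3, the fast fibre alpha-actinin, had 2987, 2968 and 2631 CPM against 6657, 5739 and 8285 (1.27). The 2 that fell, named after their values were seen, were Mybph and Myoz3 (-2.36). Mybph, a myosin-binding protein of the thick filament that this list also counts, had 26.6, 33.6 and 49.1 CPM against 0.852, 8.85 and 2.08. Calls of Des, Actn3, Mybph and Myoz3 were lost when any single control or tumour-bearing 3 was left out (adjusted p up to 0.165, 0.149, 0.106 and 0.0935), and those of Des and Actn3 under upper-quartile scaling and on log2(TPM + 1). Those of Nrap and Pdlim3 were lost without control 2 or 3 (up to 0.0594 and 0.0660), and the changes of Mybph and Myoz3 were -4.65 and -3.02 without tumour-bearing 2.

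Calcium handling held opposite changes in its most abundant genes. Atp2a1, the pump SERCA1 that returns calcium to the sarcoplasmic reticulum, had 8547, 7696 and 6492 CPM in the controls and 24070, 15480 and 19940 CPM in the tumour-bearing libraries (log2 change 1.39, SE 0.35, adjusted p = 0.0348). Casq1, calsequestrin 1, which binds calcium inside that store, had 2387, 2179 and 1914 CPM against 109, 812 and 571 (log2 change -2.12, SE 0.61, adjusted p = 0.0476). Neither gene's groups overlapped, and Casq1 ranged widely within the tumour-bearing group. Cacng1, a subunit of the voltage sensor, also rose, from 332, 321 and 283 CPM to 966, 1026 and 1443 (log2 change 1.88, SE 0.30, adjusted p = 0.0108). These were the 3 calls among 28 genes of calcium release and uptake (10.7%, under the background of 15.3%). Calls of Atp2a1 and Casq1 were lost when any single control or tumour-bearing 3 was left out (adjusted p up to 0.151 and 0.127) and under upper-quartile scaling, and that of Cacng1 for each control left out (up to 0.0731). Of 39 potassium channel genes 2 rose and 4 fell (15.4% called, beside 15.3% of all tested genes). Kcng4 had 12.6, 12.9 and 12.3 CPM against 0.182, 1.72 and 0.502 (log2 change -3.97, SE 0.67, adjusted p = 0.0127), and Kcnc4, a fast delayed rectifier, 11.2, 11.1 and 11.8 CPM against 120, 34.5 and 44.4 (log2 change 2.55, SE 0.46, adjusted p = 0.0146). These related channels moved apart in every tumour-bearing library. The call of Kcng4 was lost without control 3 (0.0620), that of Kcnc4 for each control left out (up to 0.0814), and their changes were -5.27 without tumour-bearing 2 and 1.81 without tumour-bearing 1.

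Of 20 myogenic regulators and satellite cell genes 1 rose and 4 fell. Cdh15, M-cadherin, which holds satellite cells to the fibre, had 13.3, 12.9 and 11.6 CPM in the controls and 47.2, 36.6 and 54.7 CPM in the tumour-bearing libraries (log2 change 1.88, SE 0.27, adjusted p = 0.00774, and up to 0.0594 without control 2 or 3). Pax7, the defining factor of satellite cells, named after its values were seen, had 1.53, 1.83 and 1.03 CPM against 0.325, 0.515 and 0.0772 (log2 change -2.20, SE 0.59, adjusted p = 0.0400). These satellite cell markers changed in opposite directions, each with no overlap, and the call of Pax7 was lost without any library but tumour-bearing 2 (adjusted p up to 0.148). Mef2c, a transcription factor of muscle genes, also named after its values were seen, fell from 356, 365 and 378 CPM to 55.8, 149 and 142 (log2 change -1.67, adjusted p = 0.0260), and Heyl, a target of Notch, changed by -1.39. Both calls were lost when any single control was left out (up to 0.0980 and 0.0967).

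**Figure D5:**
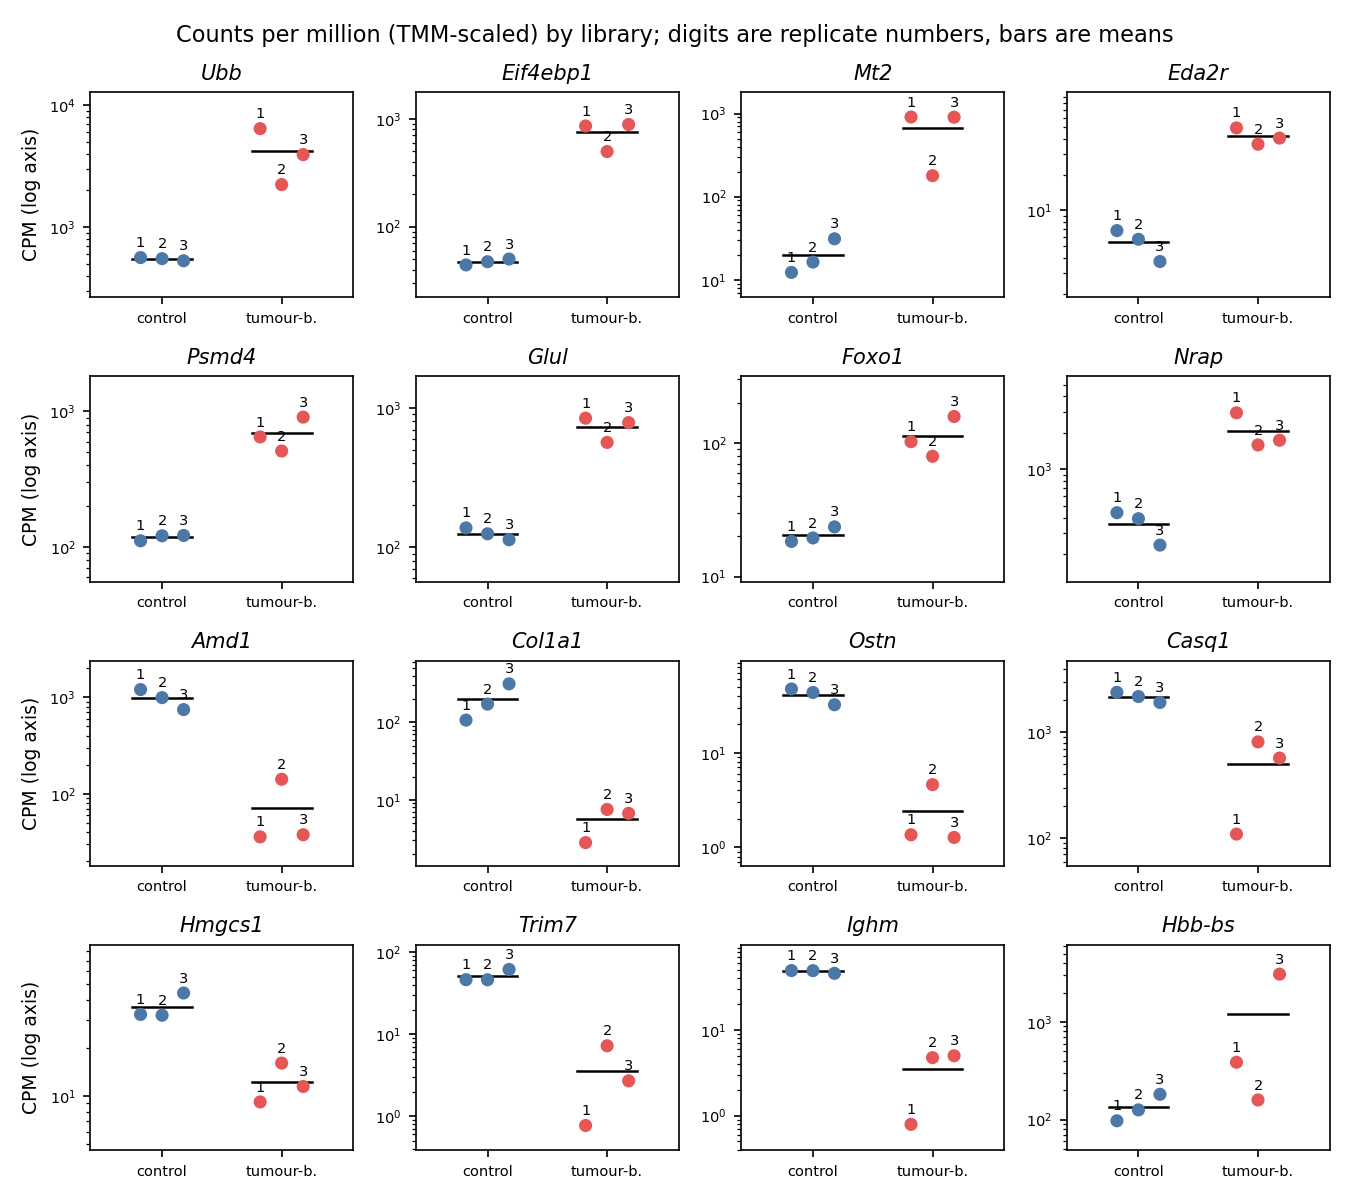
CPM of 16 genes in each muscle library on log axes; points are libraries with their replicate numbers and bars are group means, with control libraries on the left and tumour-bearing libraries on the right of each panel. The groups do not overlap in any panel but that of Hbb-bs, a beta globin gene with 97.1, 126 and 181 CPM in the controls and 386, 159 and 3090 CPM in the tumour-bearing libraries, and tumour-bearing 2 lies nearest to the controls for Ubb, Mt2, Foxo1, Amd1 and Ostn.

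The matrix formed the largest block of decreases. Of 35 collagen chains 18 fell and none rose, the change was negative in 34, and all 18 were lower by at least 2-fold in every fit that left out 1 library. The calls of 8 chains held in all of those fits: Col1a1, Col1a2, Col5a1, Col5a3, Col6a1, Col6a2, Col6a3 and Col15a1. Col1a1, of type I collagen, the main fibre of tendon and fascia, had 107, 172 and 314 CPM in the controls and 2.82, 7.54 and 6.72 CPM in the tumour-bearing libraries (log2 change -5.12, SE 0.55, adjusted p = 0.00496). Col6a2, of type VI collagen, which links fibres to their basement membrane, had 43.1, 46.8 and 40.8 CPM against 4.87, 6.998 and 6.41 (log2 change -2.84, SE 0.27, adjusted p = 0.00425). Col15a1, of the basement membrane zone, had 26.2, 27.2 and 27.3 CPM against 2.03, 3.86 and 2.43 (log2 change -3.28, SE 0.32, adjusted p = 0.00432). The control values of Col1a1 spread widely, highest in control 3, while those of Col6a2 and Col15a1 were close together, and in all 3 genes the groups lay far apart. In whole muscle, fewer cells of a type and less RNA per cell cannot be told apart. The median of the collagen list was -2.02, between -2.29 and -1.62 in every fit without 1 library. It was -2.23 under upper-quartile scaling but only -0.53 on log2(TPM + 1), the scale that shrinks changes of low genes.

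Other matrix lists held decreases in differing shares. Of 12 small leucine-rich proteoglycans, which regulate collagen fibrils, 6 fell and none rose. Lum, lumican, had 18.3, 17.2 and 21.4 CPM in the controls and 1.84, 4.37 and 3.51 CPM in the tumour-bearing libraries (log2 change -2.55, SE 0.36, adjusted p = 0.00741) and held in every fit. Dcn, decorin, the most abundant of them, did not pass, with 360, 483 and 727 CPM against 406, 320 and 944 and overlapping groups (log2 change 0.09, adjusted p = 0.904, -0.15 under upper-quartile scaling and -0.52 without tumour-bearing 3). Of 26 elastic fibre and crosslinking genes 7 fell and 1 rose. Fbn1, fibrillin 1, had 44.6, 43.2 and 52.8 CPM against 5.56, 4.97 and 6.25 (log2 change -3.07, SE 0.26, adjusted p = 0.00407), and Loxl2, a lysyl oxidase that crosslinks collagen, 8.51, 9.80 and 10.4 CPM against 1.82, 2.55 and 1.78 (log2 change -2.22, SE 0.29, adjusted p = 0.00673). Both held in every fit, and tumour-bearing 2 did not stand apart from its group in Fbn1. The 1 that rose was Tgm2, a transglutaminase, named after its values were seen, from 43.5, 46.7 and 53.3 CPM to 153, 101 and 176 (log2 change 1.58, adjusted p = 0.0147, and up to 0.0858 with a control left out). Of 33 integrins and laminins 7 fell and none rose, among them Lamb1 (-1.52), a laminin chain, and Itgb6 (-3.94). Of 32 metalloproteases, ADAMTS proteases and inhibitors 2 rose and 4 fell (18.8%, near the background of 15.3%), with Adamts5 at -1.49 and Adamts9 at 1.32. Calls of Lamb1, Itgb6, Adamts5 and Adamts9 were lost when any single control was left out (adjusted p up to 0.0755, 0.0754, 0.0935 and 0.138), those of Itgb6 and Adamts9 also without tumour-bearing 3, and without tumour-bearing 2 the change of Itgb6 was -5.83.

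Markers of other cells were examined beside these changes, and their part in them was not tested. Of 11 tested fibroblast markers 7 fell and none rose, with a median of -2.47. Among those that fell, Col1a1, Lum and Col3a1 (named after its values were seen) also count in the matrix lists above. The fibroblast and matrix lists are therefore not separate results. Pi16, a marker of fibroblasts around vessels, had 24.8, 28.9 and 26.7 CPM in the controls and 0.811, 2.93 and 2.35 CPM in the tumour-bearing libraries (log2 change -3.73, SE 0.46, adjusted p = 0.00604) and held in every fit, as did Cd248, endosialin (log2 change -3.27). Pdgfra, the receptor that defines the lineage, named after its values were seen, did not pass, with 11.6, 11.2 and 11.7 CPM against 9.51, 5.89 and 7.99 (log2 change -0.56, adjusted p = 0.172). Changes in this list thus ran from -5.12 for Col1a1 to 0.43 for Dpep1, which did not pass, with Dcn at 0.09 (-0.52 without tumour-bearing 3). The summed TPM of the list, to which Dcn contributes most, was 339 to 400 in the controls and 218 to 356 in the tumour-bearing libraries. Of 8 tendon cell markers 2 fell, Kera (-5.67) and Tnmd (-3.23), the latter named after its values were seen. Kera also counts among the small leucine-rich proteoglycans above. The call of Tnmd was lost without any library but tumour-bearing 3 (adjusted p up to 0.170), and its change ran from -4.42 without tumour-bearing 3 to -2.42 without control 3. Kera, keratocan, had 3.12, 8.33 and 27.0 CPM against 0.0406, 0.335 and 0.425, highest in control 3, without which its change was -4.50 with an adjusted p of 0.0553; without tumour-bearing 1 the change was -5.06. In edgeR's test none of 8 Schwann cell markers passed.

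Of 12 endothelial markers 1 fell, Kdr (log2 change -1.16, adjusted p = 0.0438), a receptor for VEGF, and of 10 markers of pericytes and smooth muscle 1 fell, Notch3 (-1.19, adjusted p = 0.0274). Both were lost when any single control was left out (adjusted p up to 0.155 and 0.118), Kdr also without tumour-bearing 1 or 2 and Notch3 without tumour-bearing 3. The abundant endothelial marker Flt1 had 32.4, 43.7 and 66.4 CPM in the controls and 35.5, 46.3 and 79.1 CPM in the tumour-bearing libraries, nearly the same range. Red cell markers were highest in tumour-bearing 3. Their summed TPM was 778 to 916 in the controls and 2120, 971 and 10500 in tumour-bearing 1, 2 and 3. None of the 6 tested passed in edgeR's test, and their median change of 2.29 was 0.29 without tumour-bearing 3. The haemoglobin genes are near-identical copies, so the split between them is uncertain.

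Among immune cells, 4 of 5 tested neutrophil markers rose from low levels. Their summed TPM was 1.91 to 2.35 in the controls and 14.1, 14.2 and 9.24 in the tumour-bearing libraries, and Ly6g, a defining marker, was listed at 0 in all 6. S100a9 had 0.301, 0.210 and 0.380 CPM against 1.58, 1.90 and 1.51 (log2 change 2.48, SE 0.43, adjusted p = 0.0130). The summed level of B cell markers went the other way, from 16.3 to 33.6 TPM in the controls to 0.640, 2.96 and 1.92 TPM in the tumour-bearing libraries. Only 2 of these 8 markers had enough counts to test, Ighm and Cd79b, the latter named after its values were seen, and both fell. Ighm, the heavy chain of IgM, had 49.0, 48.9 and 45.5 CPM against 0.791, 4.73 and 4.98 (log2 change -3.78, SE 0.60, adjusted p = 0.0108). The groups of S100a9 and Ighm were apart. The call of S100a9 was lost when any single control was left out (adjusted p up to 0.0846, edgeR) and that of Ighm without control 3 (0.0563). That of Cd79b did not hold in every fit either. Of 12 macrophage markers 1 rose and 1 fell, with a summed TPM of 39.1 to 57.8 in the controls and 32.9 to 76.1 in the tumour-bearing libraries.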

How the data were processed

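RNA of 6 gastrocnemius libraries (3 control, 3 tumour-bearing) was sequenced as 100-base reads from a strand-preserving kit (MGIEasy RNA Directional), per the labels' protocols. Trim Galore, STAR 2.7.9a and RSEM 1.3.3 are named in the submitters' processing notes; the sources used here do not give build, annotation or strand setting, so genes that overlap or lie antisense to others are uncertain. The authors deposited RSEM expected counts and TPM for 55416 genes, and 52083 had a symbol in the table of names used. Expected counts were rounded and fitted in R 4.3.3 with edgeR 4.0.16 (TMM, filterByExpr, glmQLFit, two-sided glmQLFTest, Benjamini-Hochberg threshold 0.05). The SE is the absolute log2 change over the square root of F. CPM use TMM-scaled library sizes. With 5 libraries, the spread of an arm of 2 is pooled with the other. The fit was tested on simulated counts. Floors cover counting error only. Every replicate pair differed by far more than sampling noise (chi-square over its degrees of freedom of 109 to 437).

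Members, lists and named genes were chosen with earlier results of these data known. The rule for named genes took the 10 largest increases and 10 largest decreases that held in every fit without 1 library (mean of at least 5 CPM, clone and predicted gene names such as those ending in Rik left out), the 5 most abundant called genes each way, 2 members of each functional list by smallest unadjusted p, and for each marker list the most abundant member and that with the smallest p. Alternatives were RLE and upper-quartile scaling, DESeq2 1.42.0, limma 3.58.1 (trend on log2(TPM + 1), and voom), a robust fit, a filter at a mean of 1 CPM or none, the replicate block, each library left out and, added after seeing the data, voom with sample quality weights. Values of a few named genes are not reported here.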

Additional observations from a re-analysis of the deposited data

How the results depend on the processing

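Counts of higher and lower genes moved with the tool. Against 1226 and 970, upper-quartile scaling gave 760 higher, DESeq2 2133 and 1472, log2(TPM + 1) 157 and 258, no filter 2253 and 1778. RLE scaling, limma-voom, the mean of at least 1 CPM, the robust fit and voom with sample quality weights stayed within 1.5 times of both counts. Leaving out single libraries gave 33 to 2447 higher and 73 to 2066 lower genes. Genes called in every fit without 1 library numbered 88, but 1210 with DESeq2, 153 with limma-voom, 60 with log2(TPM + 1) (26 of the 88 among them), 1483 with no filter, 438 with the replicate block and 472 with quality weights (71 of the 88). Of the 2196 calls, 2178 were also made by DESeq2, 1888 by limma-voom and 368 on log2(TPM + 1).

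Replicate numbers are shared by the groups, but nothing ties same-numbered libraries, and their deviations correlated at 0.356, -0.046 and 0.366, with control 2 closest to tumour-bearing 1 (0.073). With the number as a block 1627 genes were higher and 1676 lower.

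Reversals concerned genes that did not pass. Leaving out single libraries, the log2 change ran from -0.518 to 0.395 for Dcn, -0.204 to 0.491 for Flt1, -0.421 to 0.474 for Fabp4, -0.704 to 0.117 for Sln, -0.430 to 0.045 for Sdc4 and -0.533 to 0.114 for Rgs5. The log2 fold change of Dcn was -0.145 under upper-quartile scaling, -0.011 with limma-voom and -0.014 with the block, the log2 fold change of Flt1 -0.042 and the log2 fold change of Fabp4 -0.115 under upper-quartile scaling, and the log2 fold change of Sln 0.029 on log2(TPM + 1). The cause of these differences was not tested. Depth limits genes under about 0.09 CPM, the level of 3 counts.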

Other observations

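Families that share the start of a symbol were counted after their values were seen, so the ones named are no sample of all families. Of 34 tested Ddx genes, RNA helicases that work mostly in ribosome assembly and splicing, 14 rose and none fell, with a median log2 change of 0.93. Other families of RNA handling had smaller shares than Ddx (41.2%). In edgeR's test 2 of 16 Dhx (12.5%), 4 of 35 Rbm (11.4%) and 1 of 13 Prpf genes (7.69%) rose, beside 8.53% of all tested genes. None of 11 Cnot and none of 13 Lsm genes passed. The medians of Dhx, Rbm, Prpf and Cnot were positive (0.67, 0.51, 0.56 and 0.40), and that of Lsm was -0.09. Ddx27 changed by 2.49 and Ddx21 by 2.16. Of 9 Cops genes, subunits of the COP9 signalosome that regulates cullin ligases, 4 rose, and of 8 cullins 3 rose: Cul4b (2.19), Cul1 (1.58) and Cul4a (1.31). Of 8 Srp genes, mostly of the particle that delivers nascent secreted proteins to the endoplasmic reticulum, 4 rose, with Srp68 at 1.62; Srp54b and Srp54c are near-identical copies and uncertain. Of 12 Snhg genes, hosts of small nucleolar RNAs, 5 rose, with Snhg12 at 2.78. None of 19 Nup genes of the nuclear pore, 14 Stx syntaxins or 14 Trappc genes passed in edgeR's test. None of these calls held in every fit that left out 1 library: without control 3 the adjusted p of the genes named ran from 0.0777 (Srp54b) to 0.176 (Cul4a). Without tumour-bearing 1 Ddx27 and Ddx21 changed by 1.83 and 1.53, and without tumour-bearing 3 Snhg12 by 2.03.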
